A study of Mus musculus with 188 samples.

Results

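Cytochrome P450 genes were followed across the aortas of inbred and recombinant inbred mice. The members were all genes measured by at least 1 probe set with a single annotated symbol made of Cyp, a number, a letter and a number, together with Cyp51. They numbered 58 of 11725 named genes and were covered by 70 of 22327 probe sets. Each gene was read from its brightest probe set, and 10 members had several. All mice were labelled wild-type males of 16 weeks, fed chow and given no treatment, and each of the 188 arrays held RNA of 1 aorta sample. The 94 strains comprised 28 AXB/BXA strains (59 arrays) derived from A/J and C57BL/6J, 28 BXD strains (53 arrays) from DBA/2J and C57BL/6J, 10 BXH strains (21 arrays) from C3H/HeJ and C57BL/6J, and 28 inbred strains (55 arrays), among them the 4 parents. Some strain names carry an allele, as in BXD29-Tlr4<lps-2J>/J and BXD24/TyJ-Cep290<rd16>/J. The BXD32/TyJ arrays, whose description field adds a suffix of unstated meaning, entered no fit, so 93 strains remained. Among all strains, 79 had 2 arrays, 9 had 1, 3 had 3 and 3 had 4. Whether replicate arrays of 1 strain stem from different mice is not stated, and a p-value here measures array-to-array spread, possibly technical.

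Cytochrome P450 enzymes are haem proteins that insert oxygen into their substrates, with electrons passed on by P450 oxidoreductase in the endoplasmic reticulum or by ferredoxin in mitochondria. Families CYP1 to CYP3 mostly oxidise drugs and other foreign compounds, CYP4 enzymes hydroxylate fatty acids and eicosanoids, and other families build or break down sterols, bile acids, steroid hormones, vitamin D and retinoic acid. In the vessel wall the family is best known for prostacyclin synthase and for epoxides and hydroxy acids of arachidonic acid that act on vascular tone.

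All values are RMA log2 values as deposited. Array medians lay between 4.55 and 4.88 log2, and the number of arrays limits the precision. A member was called expressed when its level, the mean over strain means, was above 4.07 log2, the 95th percentile of the levels of 69 genes that the aorta should not express in males (68 smell, taste and vomeronasal receptor genes and Xist). By this rule 14 members were expressed, 26 lay in between (a level not above it but at least 1 strain mean above it), and 18 stayed at background in every strain. Cyp4a10 at 4.08 was the member just inside the limit and Cyp2c29 at 3.95 the one just outside. Probe sets bind with different strengths, so levels were not compared between genes. All 10 measured smooth muscle markers were above the background level. Other tissues were also seen: scores (mean log2 value of a marker list after centring each gene on its median) were above 1 for thymocyte markers on 42 arrays, squamous epithelium on 42, airway and lung on 85, and liver on 18. In such bulk tissue, fewer cells of a type and less RNA per cell cannot be told apart.

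The expressed members were spread over 4 of the roles. They were Cyp1b1 of the CYP1 family, which oxidises polycyclic hydrocarbons and oestradiol; Cyp2a5, Cyp2b10, Cyp2d22, Cyp2e1, Cyp2f2 and Cyp2j6 of CYP2; Cyp4a10, Cyp4b1, Cyp4f13, Cyp4f16 and Cyp4v3 of CYP4; and the sterol enzymes Cyp27a1 and Cyp51. None of the 6 CYP3A genes, the 4 genes of steroid hormone synthesis or the 3 genes of vitamin D and retinoic acid metabolism was expressed by the rule. The members at background in all strains included Cyp17a1, the hydroxylase and lyase of androgen synthesis, Cyp27b1, which activates vitamin D, Cyp24a1, which inactivates it, Cyp46a1, the cholesterol hydroxylase of neurons, and the CYP2B genes Cyp2b9, Cyp2b13 and Cyp2b19.

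The first comparison asked which P450 genes differ between strains by more than arrays of 1 strain differ from each other. Of the 58 members, 13 (22.4%) passed limma's moderated F test over 84 strains and 177 arrays (adjusted over all 22327 probe sets), against 48.8% of all named genes. Among the 14 expressed members 9 passed (64.3%), a share near the 66.7% of all genes above the background level. Of the 26 members in between, 4 passed (15.4%), against 14.6% of all genes not above that level. These shares are of unlike sets. The 26 have a high strain mean by definition, and the 14.6% also covers genes at background in every strain. None of the 18 background members passed in limma, and 1 of them, Cyp46a1, had an unadjusted p below 0.05. The intraclass correlation, the share of variance that lies between strains, had a median of 0.407 over the expressed members, against 0.245 over all genes above the background level and 0.190 over all named genes.

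**Figure D1:**
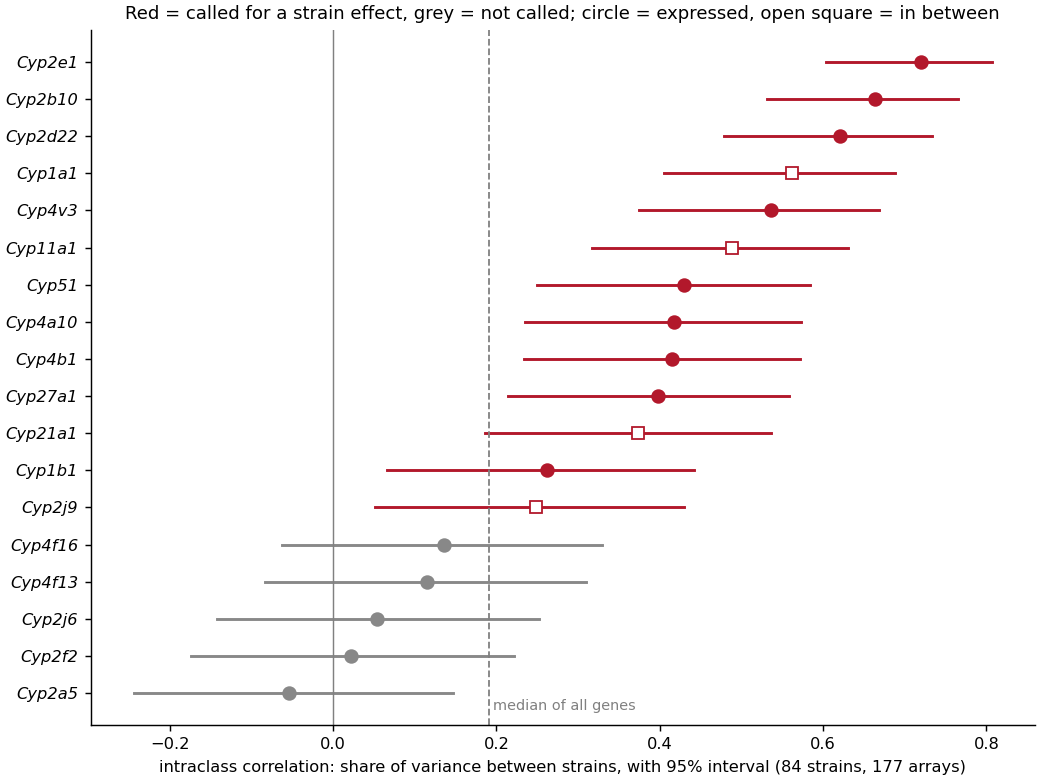
Intraclass correlation (x axis, share of variance between strains, no unit) of the 14 expressed members and the 4 members in between that were called, 1 row per gene; bars are 95% intervals, red marks a call, filled circles are expressed members and open squares members in between. Cyp2e1 stands at the top with 0.719 and Cyp2a5 at the bottom with -0.054, and the dashed line is the median over all named genes at 0.190.

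The CYP2 genes held the 3 members with the highest share of variance between strains. Cyp2e1, which oxidises ethanol, ketones and small solvents, had values of 8.55 and 8.48 in RIIIS/J and of 11.98 and 11.87 in BXH19/TyJ, the strains with the lowest and highest means. Both RIIIS/J arrays lay well under the next strain mean, 9.20 in AXB8/PgnJ. Its intraclass correlation was 0.719 (95% interval 0.604 to 0.806, adjusted p = 2.27e-15 in limma). Cyp2b10, the phenobarbital-inducible enzyme and a classic target of the nuclear receptor CAR, had 6.62 and 6.14 in AKR/J, 6.12 and 7.30 in RIIIS/J and 11.72 and 11.87 in AXB1/PgnJ. Its strain means thus spanned 6.38 to 11.80, with an intraclass correlation of 0.664 (0.532 to 0.766, adjusted p = 1.56e-12 in limma). Cyp2d22, which is related to the human drug-metabolising enzyme CYP2D6, had 5.87 and 5.84 in RIIIS/J, 5.96 and 5.81 in AKR/J and 10.08 and 9.84 in AXB1/PgnJ. Its intraclass correlation was 0.621 (0.478 to 0.734, adjusted p = 1.21e-10 in limma). The arrays of these low and high strains did not overlap for any of the 3 genes. The strains were picked by these same values, so this adds no evidence. Both RIIIS/J arrays also had thymocyte scores of 5.55 and 5.78, the 2 highest of all arrays, and the part of this in the low values was not tested. RIIIS/J had the lowest strain mean of 4 expressed members, which were Cyp2e1, Cyp2d22, Cyp4b1 and Cyp27a1. AKR/J had thymocyte scores of -0.03 and 0.45 and a mean liver score of 1.12. The part of other tissue in its values was not tested.

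The other CYP2 members that were expressed, Cyp2f2, Cyp2a5 and Cyp2j6, did not pass. Cyp2j6, of a subfamily that makes epoxides of arachidonic acid, had an intraclass correlation of 0.054 (-0.142 to 0.253, adjusted p = 0.349 in limma). Its relative Cyp2j9 lay in between and passed, with strain means of 3.39 in BXA1/PgnJ to 4.32 in BXD5/TyJ and an intraclass correlation of 0.248. It was called under 101 of 108 settings, and only 15 of its strain means were above the background level.

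Of the CYP4 genes, Cyp4v3, Cyp4b1 and Cyp4a10 passed and Cyp4f13 and Cyp4f16 did not. Cyp4v3, the mouse counterpart of the human fatty acid hydroxylase CYP4V2 that is mutated in Bietti crystalline dystrophy, had 6.61 and 5.90 in AXB2/PgnJ and 8.97 and 9.06 in BXD24/TyJ-Cep290<rd16>/J. Its intraclass correlation was 0.536 (0.374 to 0.669, adjusted p = 9.72e-08 in limma). Cyp4b1, a hydroxylase of fatty acids and foreign compounds known from lung, had 7.76 and 7.22 in RIIIS/J, 10.37 and 10.49 in BXD8/TyJ, and 11.26 and 9.73 in KK/HlJ. BXD8/TyJ was steady and KK/HlJ was not, and the intraclass correlation was 0.415 (0.233 to 0.572). Cyp4a10, a fatty acid hydroxylase induced through the nuclear receptor PPAR-alpha, was above the background level in 33 of 93 strain means. Its highest strain was AXB24/PgnJ with 4.56, 9.0 and 9.07. The first of those 3 arrays thus stood apart from the other two, and it was also lower for Cyp2b10 (6.92, against 11.03 and 11.47). Whether it holds RNA of this strain was not tested. The intraclass correlation of Cyp4a10 was 0.417 (0.235 to 0.573), and 0.560 without that array. The array was picked by its Cyp4a10 value, so the rise adds no evidence. Cyp4f13 and Cyp4f16, of the subfamily that hydroxylates leukotrienes, had intraclass correlations of 0.115 and 0.136, with adjusted p of 0.170 and 0.131 in limma.

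Both CYP1 genes with a role in hydrocarbon oxidation outside the liver passed. Cyp1a1, the classic target of the aryl hydrocarbon receptor, lay in between, with 16 strain means above the background level. It was highest in BXD29-Tlr4<lps-2J>/J (5.13 and 5.73), BXD8/TyJ (5.03 and 5.35) and C58/J (5.0 and 5.27), and lowest in A/J (2.97 and 3.10). The arrays of these 3 high strains lay above all A/J arrays, which adds no evidence because the strains were picked by these values. The intraclass correlation was 0.562 (0.405 to 0.688, adjusted p = 1.79e-08 in limma). C57L/J, a strain related to C57BL/6J, had 4.94 and 4.11. Cyp1b1 had 7.77 and 6.14 in AXB23/PgnJ and 9.54 and 9.52 in AXB1/PgnJ, with an intraclass correlation of 0.262 (0.067 to 0.442, adjusted p = 0.0105 in limma). Its call was lost under 3 of 108 settings, which include leaving out each strain. The third gene, Cyp1a2, the caffeine-oxidising enzyme of liver, had 1 strain mean above the background level.

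Both expressed sterol enzymes passed. Cyp27a1, the mitochondrial sterol hydroxylase that starts the acidic route of bile acid synthesis and makes oxysterols in macrophages, had 8.69 and 8.64 in KK/HlJ and a lowest strain mean of 6.25 in RIIIS/J. Its intraclass correlation was 0.398 (0.214 to 0.558). Cyp51, the lanosterol demethylase of cholesterol synthesis, had 3.65 and 3.88 in BTBR T<+> tf/J, 3.94 and 3.87 in KK/HlJ and 6.60 and 5.96 in C58/J. The intraclass correlation was 0.429 (0.250 to 0.583, adjusted p = 3.77e-05 in limma). Its other 2 probe sets were below the background level and did not pass. Over 93 strain means Cyp51 followed the score of 9 other genes of sterol synthesis, with r = 0.560 and rho = 0.552. For both, the two-sided permutation p was 1e-05, the smallest that 100000 resamples can give (adjusted over 203 relations 0.000135 and 0.000169). The relation was 0.506 without the 2 strains farthest from the median score, and 0.634 in the block of array numbers up to 1038 and 0.420 in the block from 1067. Strains of a family are related and are not independent, here and in all correlations over strain means. The RefSeq promoter of Cyp51 is shown because it holds a sterol regulatory element of the type described for this gene, TCACCTCA, which stands in capitals between bases -88 and -81. The window, on the minus strand of GRCm38.p6 at chr5:4104698-4104947, covers the 250 bases before the start.
Cyp51: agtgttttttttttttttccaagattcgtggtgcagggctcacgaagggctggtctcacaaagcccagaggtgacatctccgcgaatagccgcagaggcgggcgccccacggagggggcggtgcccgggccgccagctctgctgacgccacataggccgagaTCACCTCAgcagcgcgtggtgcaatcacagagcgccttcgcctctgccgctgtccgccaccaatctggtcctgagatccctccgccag
Searched on both strands, TCACCTCA was found in 1.17% of all 32851 promoter windows and in 1 of 50 windows of the members. A match describes letters and is no evidence of binding.

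The parental strains were compared next, since they carry the alleles that segregate in the recombinant inbred families. Each contrast was taken from a limma fit of all 93 strains, and all 3 contrasts share the same 3 C57BL/6J arrays. In A/J, 3 of 58 members were lower than in C57BL/6J and none was higher, against 0.648% of all named genes called, or 0.384% called lower. Cyp2e1 had 10.16 and 10.01 in A/J, against 11.62, 11.55 and 11.55 in C57BL/6J. The groups did not overlap, and the difference was -1.49 ± 0.310 log2 (SE, 2.80-fold lower in A/J, adjusted p = 0.00204 in limma). Cyp2d22 had 7.80 and 7.04 in A/J, against 9.31, 9.38 and 9.03 in C57BL/6J. This was -1.81 ± 0.475 log2 without overlap (adjusted p = 0.0393 in limma). The second Cyp2d22 probe set gave -1.11 and did not pass (adjusted p = 0.186 in limma). Cyp1a1 had 2.97 and 3.10 in A/J, against 4.33, 5.01 and 3.85 in C57BL/6J, so that both A/J arrays lay under the background level and 2 of 3 C57BL/6J arrays above it. The fitted difference was -1.36 ± 0.349 log2 (adjusted p = 0.0326 in limma). The C57BL/6J mean of Cyp1a1 was 1.26-fold above the background level, a point estimate that leaves out the spread of its arrays. Cyp2b10, at 9.08 and 8.61 in A/J and 11.62, 10.92 and 10.62 in C57BL/6J, differed by -2.21 ± 0.649 log2 and did not pass (adjusted p = 0.102 in limma).

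**Figure D2:**
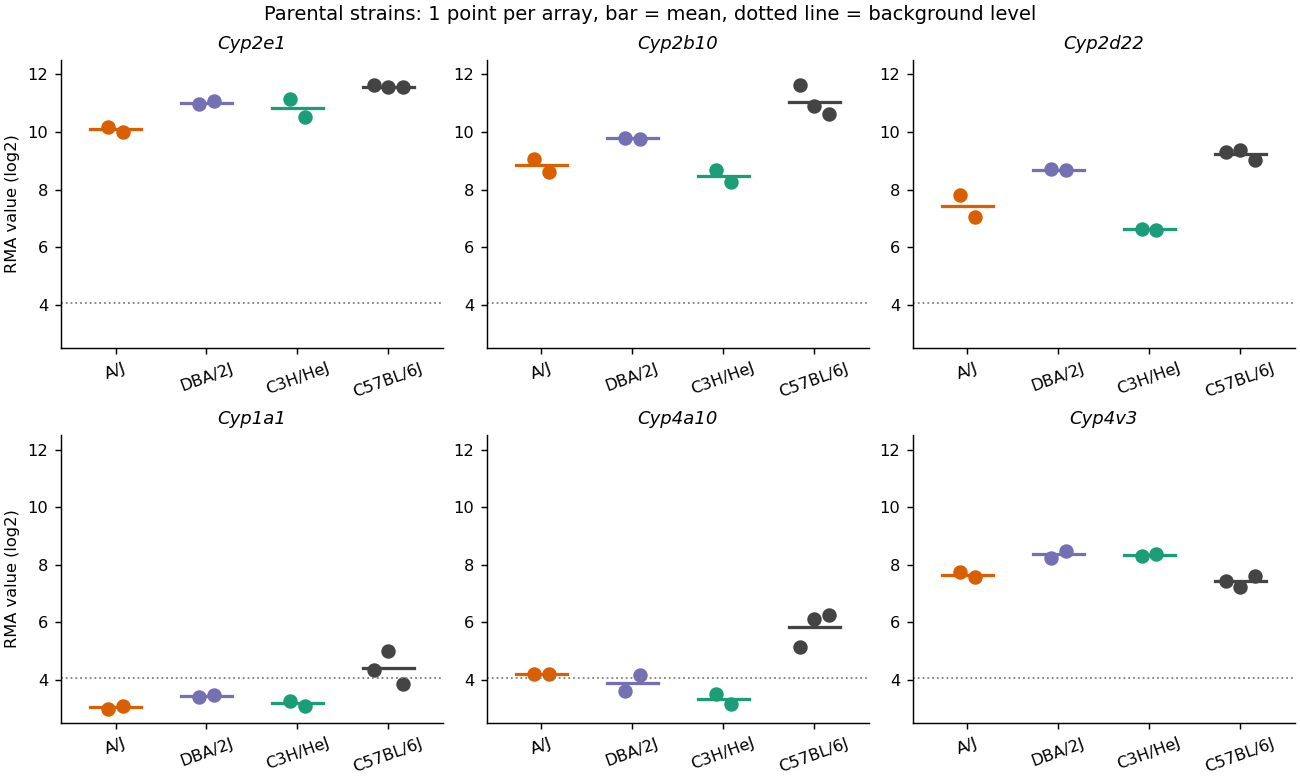
RMA log2 values (y axis) of 6 P450 genes in the parental strains A/J, DBA/2J, C3H/HeJ and C57BL/6J (x axis), with 1 point per array, bars at the means and the background level of 4.07 dotted. For Cyp2b10, Cyp2d22 and Cyp4a10 all C57BL/6J arrays lie above those of the other parents, and for Cyp4v3 the C57BL/6J mean of 7.42 is the lowest of the 4 strains.

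In C3H/HeJ, 3 of 58 members were lower than in C57BL/6J and none was higher, against 1.28% of all named genes called and 0.733% called lower. Cyp2d22 had 6.63 and 6.60 in C3H/HeJ, against the C57BL/6J values given above, and differed by -2.62 ± 0.475 log2 (6.16-fold lower in C3H/HeJ, adjusted p = 0.000142 in limma). Here the second probe set passed as well, with -1.78. Cyp2b10 had 8.69 and 8.25 in C3H/HeJ and differed by -2.59 ± 0.649 log2 (6.00-fold lower, adjusted p = 0.0182 in limma). Cyp4a10 had 3.52 and 3.15 in C3H/HeJ, against 5.14, 6.10 and 6.24 in C57BL/6J, a difference of -2.49 ± 0.683 log2 (adjusted p = 0.0390 in limma). None of these 3 genes overlapped between the strains. Like the genes named for A/J they were picked as called, and the share of all genes without overlap was not counted. Both C3H/HeJ arrays lay under the background level for Cyp4a10. Its C57BL/6J mean was 3.39-fold above that level, a point estimate that leaves out the spread of the arrays. Cyp1a1, at 3.26 and 3.10 in C3H/HeJ and also under that level, differed by -1.22 ± 0.349 log2 and did not pass (adjusted p = 0.0553 in limma).

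In DBA/2J no member passed in limma, against 0.469% of all named genes called. At an unadjusted p below 0.05 there were 3, Cyp1a1 (3.39 and 3.48 in DBA/2J, -0.96 log2), Cyp4a10 (3.61 and 4.18 in DBA/2J, -1.93 log2) and Cyp4v3 (8.24 and 8.48 in DBA/2J, against 7.42, 7.23 and 7.60 in C57BL/6J, 0.94 log2). Cyp2e1 differed by -0.55 log2, with a 95% interval of -1.16 to 0.07. Over the 14 expressed members the median difference was -0.67 in A/J, -0.23 in DBA/2J and -0.76 in C3H/HeJ, with 10 of 14 below 0 in each. The medians over all named genes were -0.03, 0.01 and -0.04, but these include genes at background. The share of all genes below 0 was not counted. The 3 contrasts share the C57BL/6J arrays and several members vary together, so these counts are not independent.

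One C57BL/6J array, replicate 2, had a liver score of 3.29, with Cyp3a11 at 7.76, against 3.80 and 3.74 on the other C57BL/6J arrays. Without it, 1 member passed in A/J and 1 in C3H/HeJ. In A/J the calls lost were Cyp1a1 (-1.05, adjusted p = 0.492 in limma) and Cyp2d22 (-1.75, adjusted p = 0.181 in limma), and in C3H/HeJ they were Cyp2b10 (adjusted p = 0.0630 in limma) and Cyp4a10 (-2.35, adjusted p = 0.213 in limma). On this array Cyp1a1 (5.01, against 4.33 and 3.85) and Cyp2d22 (9.38, against 9.31 and 9.03) were the highest of the 3, while Cyp2e1, Cyp2b10 and Cyp4a10 were not. The part of liver tissue in these values was not tested. With replicate 3 left out instead, only the C3H/HeJ call of Cyp4a10 was lost (adjusted p = 0.0551 in limma). Without replicate 1, with a liver score of -0.06, the C3H/HeJ call of Cyp2b10 was lost (adjusted p = 0.146 in limma). The A/J calls of Cyp1a1 and Cyp2d22 were lost without replicate 1 too (adjusted p = 0.0873 and 0.150 in limma). When either of the A/J arrays was left out, no member passed in that contrast.

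Whether the genes differ between the strains of 1 cross was tested in each recombinant inbred family without the parental arrays. In the BXD family (22 strains with 2 or more arrays, 46 arrays) 11 members passed, against 16.8% of all named genes. Of the 14 expressed members 8 passed (57.1%), against 23.8% of all genes above the background level. Cyp4a10 had the highest intraclass correlation, at 0.871 (0.725 to 0.943, adjusted p = 2.74e-07 in limma). Its values in BXD8/TyJ were 6.59 and 6.50, apart from the next strain mean of 4.60 in BXD22/TyJ and a median over strains of 3.80. BXD8/TyJ was nearer to the C57BL/6J mean of 5.83, and the other 26 BXD strains were nearer to the DBA/2J mean of 3.90. Cyp1a1 had 0.808 (0.608 to 0.914, adjusted p = 1.07e-05 in limma), with BXD29-Tlr4<lps-2J>/J and BXD8/TyJ above all others. The third strain was BXD38/TyJ with 4.90 and 3.76, the median was 3.46, and 22 strains were nearer to DBA/2J and 5 to C57BL/6J.

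Cyp4v3 had an intraclass correlation of 0.720 in BXD (0.456 to 0.871, adjusted p = 0.000284 in limma). The strains divided evenly, with 13 nearer to DBA/2J and 14 nearer to C57BL/6J, and the extremes were 8.97 and 9.06 in BXD24/TyJ-Cep290<rd16>/J and 6.55 and 6.75 in BXD20/TyJ. Cyp4b1 had 0.645, with 10.37 and 10.49 in BXD8/TyJ and 8.16 and 7.89 in BXD36/TyJ. BXD8/TyJ was the highest BXD strain for Cyp4a10, Cyp4b1, Cyp2d22 and Cyp2e1, with liver scores of 0.36 and 0.52, below the limit of 1. The other expressed members called were Cyp2b10 (0.626), Cyp2e1 (0.605), Cyp51 (0.590), Cyp27a1 (0.518) and Cyp2d22 (0.497). Of the members in between, Cyp3a11 and Cyp4f18, a leukotriene hydroxylase of mouse neutrophils, also passed. Their intraclass correlations were 0.595 and 0.472. Cyp3a11 had 5.39 and 4.60 in BXD22/TyJ, with liver scores of 1.12 and 0.88, and without that strain it did not pass (adjusted p = 0.315 in limma). The call of Cyp4f18 was lost under 9 of 33 settings.

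In the AXB/BXA family (27 strains, 58 arrays) 4 members passed, against 4.06% of all named genes. Cyp2e1 had an intraclass correlation of 0.558 (adjusted p = 0.00960 in limma), with 9.47 and 8.94 in AXB8/PgnJ and 11.45 and 11.44 in BXA14/PgnJ. Cyp2b10 had 0.520 (adjusted p = 0.0158 in limma), with 7.48 and 6.51 in AXB8/PgnJ and 11.72 and 11.87 in AXB1/PgnJ. Cyp2d22 had 0.462 (adjusted p = 0.0419 in limma), with 6.76 and 6.68 in AXB15/PgnJ and 10.08 and 9.84 in AXB1/PgnJ. The call of Cyp2d22 was lost under 13 of 39 settings and those of Cyp2e1 and Cyp2b10 under 4 of 39 each. Leaving out AXB8/PgnJ ended the calls of Cyp2e1 (adjusted p = 0.111 in limma) and Cyp2b10 (0.0608), and leaving out AXB1/PgnJ those of Cyp2d22 (0.271) and Cyp2b10 (0.0523). The calls of Cyp2e1 (0.127) and Cyp2d22 (0.170) were also lost without arrays high in liver, adrenal or kidney genes. Those arrays included BXA14/PgnJ replicate 2, with a liver score of 7.94. Without the AXB24/PgnJ array that stood apart, Cyp4a10 passed as well (0.626, adjusted p = 0.00162 in limma). That array was picked by its Cyp4a10 value, so this call adds no evidence. Most strains were nearer to A/J than to C57BL/6J, with 19 against 9 for Cyp2e1, 18 against 10 for Cyp2b10 and 22 against 6 for Cyp2d22. For Cyp2d22 and Cyp2b10 AXB1/PgnJ lay above both parents. The fourth call, Cyp11a1, came from BXA12/PgnJ, described below. In the BXH family (9 strains, 20 arrays) 1 member passed, against 1.21% of all named genes. This was Cyp2e1, at 0.853 (0.556 to 0.963, adjusted p = 0.00482 in limma), with 10.19, 9.80, 10.32 and 10.40 in BXH4/TyJ and 11.98 and 11.87 in BXH19/TyJ. Without BXH4/TyJ it did not pass.

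**Figure D3:**
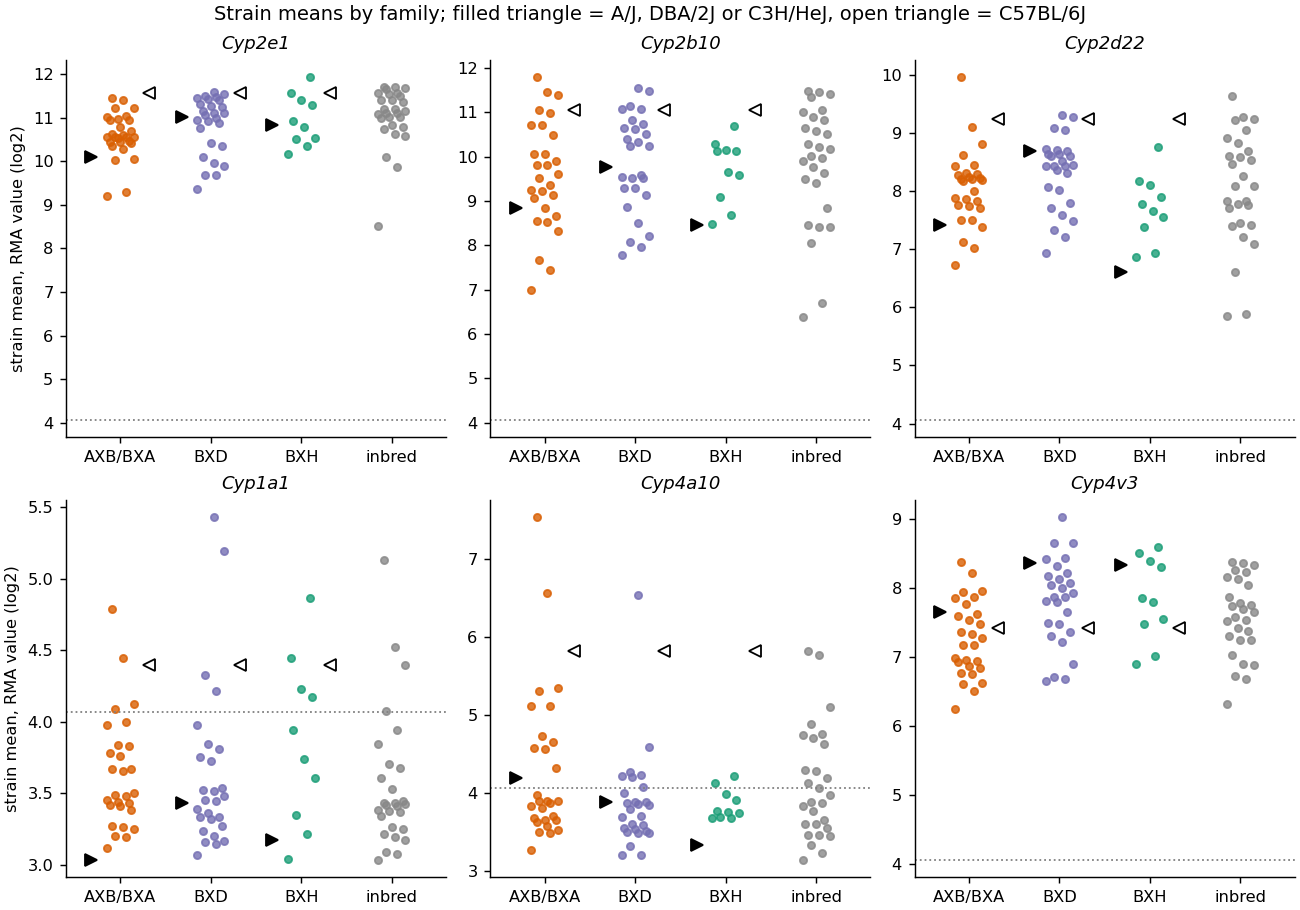
Strain means (y axis, RMA log2) of 6 P450 genes by family (x axis), 1 point per strain, with the means of A/J, DBA/2J or C3H/HeJ as filled triangles, C57BL/6J as open triangles and the background level dotted. Cyp4a10 shows BXD8/TyJ at 6.54 apart from the other BXD strains, while Cyp4v3 fills the range between and beyond the parents in BXD.

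Families were then compared with each other, with each strain as 1 value. Between AXB/BXA and BXD 1 of 58 members passed, against 2.09% of all named genes, or 1.26% lower in AXB/BXA. Cyp4v3 averaged 7.27 ± 0.546 log2 over 28 AXB/BXA strains and 7.81 ± 0.624 log2 over 27 BXD strains (SD), a difference of -0.54 ± 0.156 (SE, adjusted p = 0.0469 in limma). The call was lost under 42 of 68 settings, with differences of -0.59 to -0.30. None passed between AXB/BXA and BXH in limma (0.213% of all named genes did, and Cyp4v3 at -0.57 had an unadjusted p below 0.05). None passed between BXD and BXH in limma either (0.179% of all named genes did, and Cyp2d22 at 0.60 had an unadjusted p below 0.05).

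Many of the members in between had their highest value on the same array. BXA14/PgnJ replicate 2 had a liver score of 7.94, with all 9 measured liver markers higher than on any other array (albumin 12.73, against 4.94 in replicate 1). On this array 20 members had their highest value of all 188 arrays. Several arachidonic acid and drug oxidases of the CYP2C and CYP2D subfamilies were among them. Cyp2c38, Cyp2c39, Cyp2c55, Cyp2d22 and Cyp2d34 of the same subfamilies were not. Cyp2c29 had 10.76 in replicate 2 and 3.89 in replicate 1, Cyp2c70, which makes muricholic acids in mice, had 10.69 and 3.38, and Cyp2d26 had 10.13 and 3.54. Cyp3a11, the main CYP3A drug oxidase of mouse liver, had 10.75 in replicate 2 and 3.55 in replicate 1, and Cyp3a25 had 8.98 and 3.01. These values were far above the background level in one array of the strain and under it in the other.

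The bile acid genes followed the same split. Cyp7a1, the rate-limiting enzyme of bile acid synthesis, had 7.81 in replicate 2 and 3.79 in replicate 1, Cyp8b1, the sterol hydroxylase needed for cholic acid, had 8.70 and 3.28, and Cyp7b1, an oxysterol hydroxylase, had 8.14 and 3.50. Cyp1a2 had 8.08 and 3.10. In all, 20 members exceeded their median by more than 2 log2 on this array, 17 of them in between and 3 expressed (Cyp2f2, Cyp2a5 and Cyp4a10). Of the 17, 7 count as in between only because BXA14/PgnJ itself was their 1 strain mean above the background level, so the class is not independent of this array. Airway markers were also higher in replicate 2, with an airway and lung score of 1.99, against -0.62 in replicate 1 (Scgb1a1 12.27, against 6.02). BXA14/PgnJ held the highest strain mean of 19 members, 17 in between and 2 at background (Cyp2b13 and Cyp2d13). Cyp3a16 and Cyp3a41a, CYP3A genes of female or newborn mouse liver, stayed at 2.84 and 3.07 there. Cyp2e1, although abundant in liver, did not differ between the arrays of this strain, with 11.44 in replicate 2 and 11.45 in replicate 1. The part of liver or airway tissue in the high values was not tested.

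**Figure D4:**
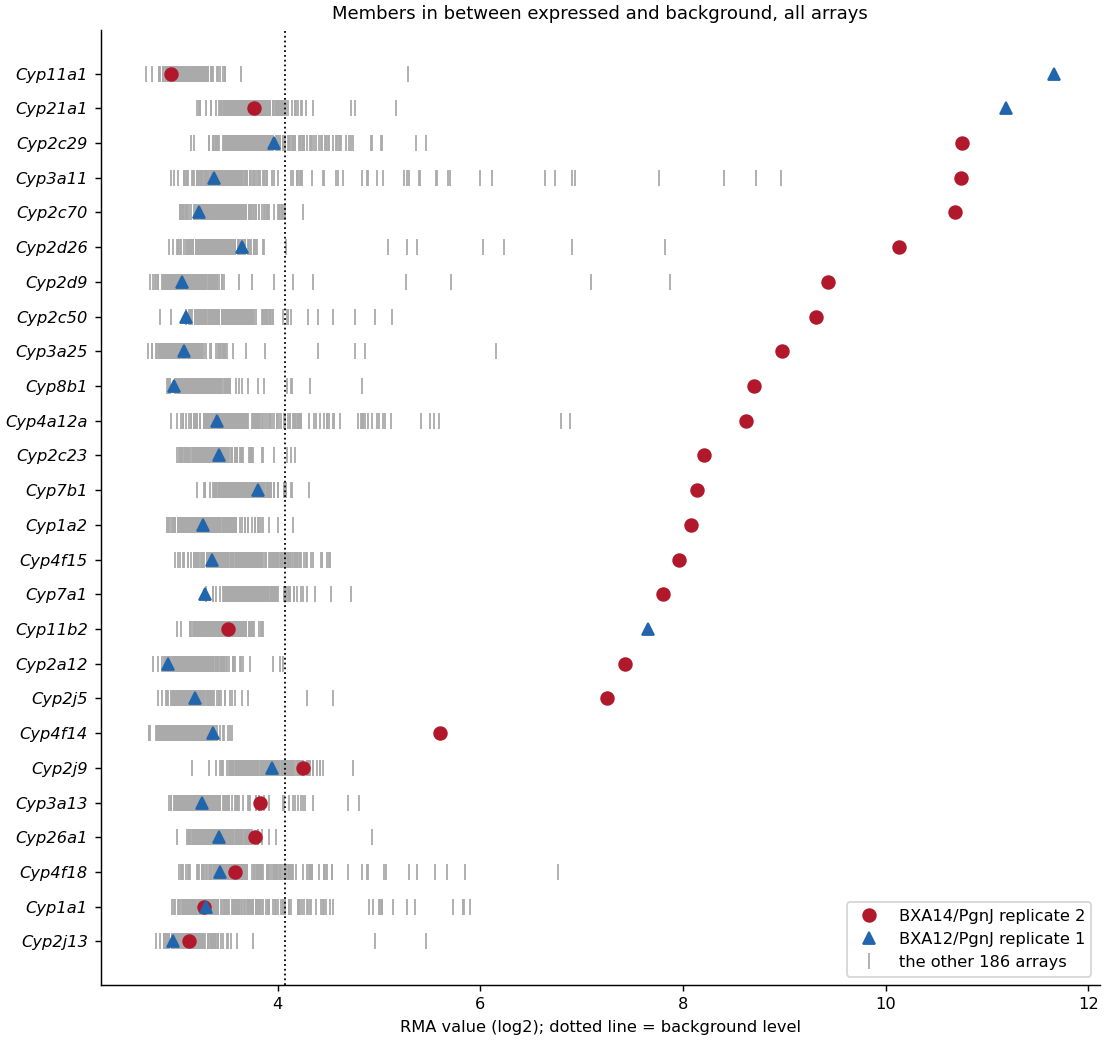
RMA log2 values (x axis) of the 26 members in between on all arrays, 1 row per gene; red circles are BXA14/PgnJ replicate 2, blue triangles BXA12/PgnJ replicate 1, grey ticks all other arrays, and the dotted line is the background level of 4.07. Red circles stand to the right of all ticks for the liver genes, as for Cyp2c70 at 10.69, and blue triangles for Cyp11a1 at 11.66, Cyp21a1 at 11.19 and Cyp11b2 at 7.65.

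Promoters of 3 of these genes are shown because they share CAAAGTCCA, a motif specific to the liver factor HNF4, printed in capitals. It was found in 0.475% of all 32851 windows and in 5 of 50 windows of the members, the other two being Cyp3a16 and Cyp3a41a, which were not high on this array. The RefSeq windows of GRCm38.p6 hold the 250 bases before the start, all on minus strands. Cyp3a11 lies at chr5:145879855-145880104 with the match from -109 to -101, Cyp8b1 at chr9:121916306-121916555 with the match from -67 to -59, and Cyp2c70 at chr19:40187287-40187536 with the match from -64 to -56.
Cyp3a11: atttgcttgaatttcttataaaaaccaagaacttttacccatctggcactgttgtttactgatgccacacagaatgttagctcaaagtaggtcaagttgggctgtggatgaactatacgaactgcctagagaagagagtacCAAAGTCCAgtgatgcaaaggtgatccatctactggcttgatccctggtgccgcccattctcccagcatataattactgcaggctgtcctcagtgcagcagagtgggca
Cyp8b1: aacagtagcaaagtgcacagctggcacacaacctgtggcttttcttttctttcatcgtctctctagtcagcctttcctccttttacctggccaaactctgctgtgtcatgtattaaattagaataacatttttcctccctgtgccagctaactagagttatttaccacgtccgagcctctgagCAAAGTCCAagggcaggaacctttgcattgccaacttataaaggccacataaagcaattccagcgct
Cyp2c70: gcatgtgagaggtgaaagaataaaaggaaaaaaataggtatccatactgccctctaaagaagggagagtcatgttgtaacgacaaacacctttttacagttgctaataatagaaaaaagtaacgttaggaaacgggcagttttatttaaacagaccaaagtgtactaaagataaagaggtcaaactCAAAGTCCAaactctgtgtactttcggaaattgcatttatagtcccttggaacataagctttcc
The factor's own gene, Hnf4a, had a level of 3.84, below the background level, and its highest strain mean was 5.71 in BXA14/PgnJ.

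Smaller liver scores were seen on other arrays, and Cyp3a11 moved with them. The next were BXA8/PgnJ replicate 1 (score 3.87), 129X1/SvJ replicate 1 (3.79), C57BL/6J replicate 2 (3.29), AXB19a/PgnJ replicate 1 (3.28) and KK/HlJ replicate 1 (3.02). Cyp3a11 had 8.97 on the first and 8.72 on the second of these. On the 18 arrays with a score above 1 its median was 6.05, against 3.50 on the other 170. KK/HlJ replicate 1 and SJL/J replicate 1 also had kidney scores of 2.38 and 2.16.

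Steroid hormone genes were high on a different array. BXA12/PgnJ replicate 1 had a steroidogenic adrenal score of 5.24, with 8 of 9 measured markers higher than on any other array (Star 10.39 and Hsd3b1 12.47). Cyp11a1, the side chain cleavage enzyme that starts steroid synthesis, had 11.66 in replicate 1 and 5.29 in replicate 2. Cyp21a1, the steroid hydroxylase of the adrenal cortex, had 11.19 and 5.17, and Cyp11b2, aldosterone synthase, had 7.65 and 3.82. Cyp17a1 remained at background with 3.47 and 3.33. Replicate 2 was the second highest of all arrays for Cyp11a1 and Cyp21a1. Without BXA12/PgnJ and BXA14/PgnJ, Cyp11a1 was no longer called for the strain effect (intraclass correlation 0.0546, adjusted p = 0.494 in limma), while Cyp21a1 still passed (0.217, adjusted p = 0.0410 in limma). Cyp21a1 was called under 103 of 108 settings, of which 94 left out only 1 strain or 1 array. Where dim probe sets were left out, Cyp21a1 was not tested. Its call was lost without the arrays high in liver, adrenal or kidney genes (0.189, adjusted p = 0.105 in limma). It was also lost without arrays high in airway genes (adjusted p = 0.412 in limma). The same held without arrays high in thymocyte or squamous epithelium genes (0.0853) and in the first block of array numbers alone (0.135).

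Cyp2f2 and Cyp2a5 varied more between arrays of 1 strain than any other expressed member. Cyp2f2, the naphthalene-oxidising enzyme of airway club cells, had a within-strain SD of 2.30 log2 and an intraclass correlation of 0.0215 (adjusted p = 0.458 in limma). With liver, adrenal, kidney and airway scores in the fit it passed (adjusted p = 0.0491 in limma). Cyp2a5, the coumarin hydroxylase of liver and olfactory and airway epithelium, had an SD of 2.47 log2 and an intraclass correlation of -0.054 (adjusted p = 0.734 in limma). In BXD8/TyJ, whose arrays were alike for Cyp4a10, Cyp2f2 had 6.40 and 10.11 and Cyp2a5 had 3.70 and 8.18. In A/J, Cyp2f2 had 9.61 and 4.54 and Cyp2a5 had 7.86 and 3.72. In both strains the same array was high for both genes.

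Both genes moved with the airway and lung markers. On the 85 arrays with an airway and lung score above 1, Cyp2f2 had a median of 10.99 (6.58 to 12.48), against 6.63 (4.41 to 10.78) on the other 103. Cyp2a5 had 8.53 (3.09 to 10.33), against 3.84 (2.55 to 7.20), and was above the background level on 82 of 85 arrays, against 45 of 103. The ranges overlapped for both genes, and the part of airway tissue in these levels was not tested. The medians of Cyp2b10 (10.06 and 9.81) and Cyp2e1 (10.88 and 10.96) on the same arrays lay closer together. Among the members in between, Cyp4a12a, a fatty acid hydroxylase, was above the background level on 42 of 85 arrays, against 4 of 103 (medians 4.06 and 3.44), and Cyp3a13 on 10 of 85, against 0 of 103. Over 93 strain means Cyp2a5 and Cyp2f2 correlated with r = 0.841 and rho = 0.838, each with a permutation p of 1e-05 (adjusted 0.000135 and 0.000169). Without the 2 farthest strains r was 0.835, and it was 0.784 in the first block and 0.904 in the second.

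**Figure D5:**
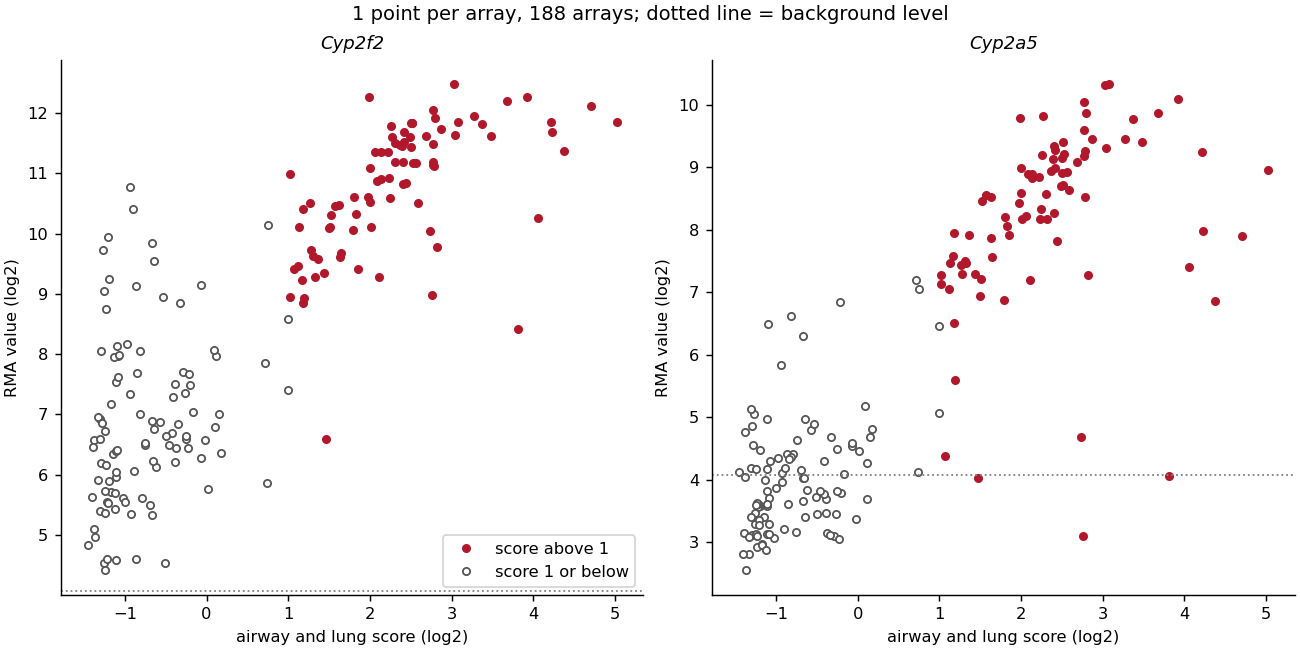
RMA log2 values of Cyp2f2 (left) and Cyp2a5 (right) on the y axis against the airway and lung marker score (log2) on the x axis, 1 point per array, 188 arrays; red points have a score above 1 and open points a score of 1 or below. Red points have medians of 10.99 and 8.53, and open points medians of 6.63 and 3.84.

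Several expressed members varied together over strains. Among 91 pairs of expressed members 27 passed, 23 with a positive and 4 with a negative sign. Among 112 relations of expressed members with marker scores 26 passed, 18 positive and 8 negative. Both counts come from two-sided permutation tests, adjusted over all 203. The shares among other genes were not counted, so these counts show nothing particular to P450 genes. Cyp2b10 followed Cyp2e1 (r = 0.697, rho = 0.666, both p = 1e-05, adjusted 0.000135 and 0.000169). This was 0.640 without the 2 farthest strains, and 0.679 and 0.728 within the blocks. Cyp2b10 followed Cyp2d22 as well (r = 0.691, rho = 0.651, both p = 1e-05, adjusted as before), with 0.626 without the 2 farthest strains and 0.805 and 0.508 within blocks. Cyp4v3 ran the other way, with r = -0.445 and rho = -0.460 against Cyp2b10 (p = 2e-05 and 1e-05, adjusted 0.000214 and 0.000169). Without the 2 farthest strains it was -0.438, and within blocks -0.422 and -0.517. The 2 Cyp2b10 probe sets correlated with r = 0.998, here over single arrays and not over strain means.

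Among the marker scores, Cyp2e1 followed the adipocyte list (r = 0.546, rho = 0.531, both p = 1e-05, adjusted 0.000135 and 0.000169), with 0.472 without the 2 farthest strains and 0.538 and 0.527 within blocks. It ran against the sterol synthesis list (r = -0.439, rho = -0.504, p = 3e-05 and 1e-05, adjusted 0.000290 and 0.000169), with -0.414 without the 2 farthest and -0.465 and -0.437 within blocks. Cyp27a1 followed the endothelial list (r = 0.535, rho = 0.412, p = 1e-05 and 5e-05, adjusted 0.000135 and 0.000534), with 0.418 without the 2 farthest strains and 0.683 and 0.250 within blocks. Cyp4f13 followed the same list (r = 0.548, rho = 0.510, both p = 1e-05, adjusted 0.000135 and 0.000169), with 0.506 without the 2 farthest strains and 0.647 and 0.271 within blocks. All 26 relations with scores that passed kept their sign without the 2 farthest strains and within both blocks. Each pair of strain means came from the same arrays, so these relations also hold whatever those arrays share.

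Genes that work with the P450 enzymes were counted in the same strain test. Of 6 measured electron transfer and haem genes 5 passed, with intraclass correlations of 0.450 for cytochrome b5 (Cyb5a) and 0.449 for Alas1, the first enzyme of haem synthesis. The exception was Pgrmc1, a haem-binding partner, at 0.074. Of 14 regulators 5 passed, led by Ppara, the fatty acid receptor, at 0.554 (6.66 in AXB1/PgnJ, its lowest strain), and Arnt, the partner of the aryl hydrocarbon receptor, at 0.318. Ahr, Nr1i2 (PXR) and Nr1i3 (CAR) had levels of 3.32, 3.35 and 3.56, below the background level, and did not pass. Of 11 other xenobiotic and epoxide enzymes 10 passed, led by Ugt1a6a, a glucuronyl transferase, at 0.681. Ephx2, the soluble epoxide hydrolase that degrades P450 epoxides, had 0.432. Of the P450 genes with other symbols, Ptgis, prostacyclin synthase, passed at 0.314 and Tbxas1, thromboxane synthase, did not at 0.094. Of 9 genes of sterol synthesis 8 passed, led by Sc5d at 0.663. Of these lists, all 6, 7 of 14, all 11, both and 8 of 9 genes were above the background level, where 66.7% of all genes passed, against 14.6% of all genes not above it.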

How the data were processed

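RNA of mouse aorta was hybridised to Affymetrix HT_MG-430A arrays, with GCOS and RMA named in the submitters' processing notes; versions were not given in the sources used here. RMA values on the log2 scale were deposited by the authors for 22416 probe sets, of which 89 control probe sets were left out. A probe set was named where the platform annotation gives 1 symbol (17783 probe sets; 284 have several and 4260 are not listed). Probe sets ending in _s_at (those of Cyp2b10, Cyp4v3, Cyp4a10, Cyp2a5, Cyp2c23 and Cyp7b1 here) can bind transcripts of related genes, so these values are uncertain in that respect. Those ending in _a_at (Cyp1a1, Cyp2f2, Cyp2d9 and Cyp2d13 here) can bind several transcripts of the same gene. The members, lists and tests were chosen with earlier results of these data known.

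Strain effects were tested with limma 3.58.1 in R 4.3.3 as a moderated F test, parental contrasts in 1 fit of 93 strains (93 residual degrees of freedom), and family contrasts on strain means. Benjamini-Hochberg adjustment ran over all 22327 probe sets, with calls below 0.05. Intraclass correlations came from one-way variance components with a 95% F interval. Correlations used 100000 resamples, and pairs of members were added after the values were seen. On simulated data the strain test recovered 195 of 200 changed probe sets with 10 false calls, and the DBA/2J contrast recovered 48 of 100 changes of 1 log2 and 86 of 100 changes of 2 log2. Full statistics were given for expressed members called for the strain effect, members called in a contrast, and the 4 called members with the highest intraclass correlation in each family. Alternatives covered normalization, a filter on dim probe sets, array number block, other tissues, probe set choice, BXD32/TyJ and leaving out arrays or strains; those on liver, adrenal, kidney and airway arrays, on single strains in the test over all strains and on 1 AXB24/PgnJ array were added after seeing the data.

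RefSeq promoter windows (250 bases before to 50 after the start) were found for 43 of 58 members and searched on both strands for 22 motifs, chosen after the array values were seen. These were TCACCTCA and ATCACNNCA (sterol regulatory elements, of which the last overlaps the Cyp51 match), CAAAGTCCA and a direct repeat (HNF4), the HNF1 element, TGTTTAC and TGTTTGC (FOXA), AAGGTCA and CAAGGTCA (SF-1), TGACGTCA and TGACGCGA (CRE), TNGCGTG (xenobiotic response), TTGCGCAA and TTNCNNAA (C/EBP), a strict and a looser PPAR element, the glucocorticoid response element, CACTCAAG (NKX2-1), CCAAT, TTATGTAA (D-box), the NF1 element and the CAR and PXR element. Only those with a match shown in the report are described there.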

Additional observations from a re-analysis of the deposited data

Results flagged for a closer look

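In the 3 strains with 4 arrays, 18 members were looked at for an array far from the other 3 by Dixon's criterion, and 3 of 54 cases were found, which is near the 1 in 20 that chance gives. Cyp2a5 was 5.05 in AXB19b/PgnJ replicate 1, against 7.95 to 8.43 on the other arrays of the strain. Cyp4b1 was 9.10 in BXH4/TyJ replicate 3, against 8.75 to 8.78. Cyp11a1 was 3.19 in BXD19/TyJ replicate 4, against 2.98 to 2.99, all below the background level.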

How the results depend on the processing

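No paired analysis was possible because replicate numbers were given only in accession order. Counts below are of members called. With array number block as a covariate, the C3H/HeJ contrast gave 1 and AXB/BXA against BXD gave 0. With thymocyte, squamous and skeletal muscle marker scores added to the fit, the strain effect within AXB/BXA gave 7, within BXH 3, and AXB/BXA against BXD 0. With the 75 arrays above the limit for thymocyte or squamous markers dropped, AXB/BXA gave 0 within the family and 0 against BXD. The contrast of AXB/BXA with BXD also gave 0 with BXD32/TyJ, within each block and without airway-high arrays. With only strains of consecutive array numbers, AXB/BXA gave 2 and BXH 0. Without liver, adrenal or kidney arrays (22 left out), AXB/BXA gave 1 and A/J 1. Without airway-high arrays (84 left out, 102 left), the strain effect gave 6 and 7.26% of all probe sets were called, the A/J and C3H/HeJ contrasts gave 0, and the tests within AXB/BXA, BXD and BXH gave 0 each. With liver, adrenal, kidney and airway scores in the fit the strain effect gave 18, adding Cyp2f2, Cyp3a11, Cyp4f13, Cyp4f15 and Cyp4f18. Settings that leave out arrays test fewer of them, and other causes were not tested.

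Leaving out 1 strain or parental array at a time gave 12 members for the strain effect (without BXA12/PgnJ, which ended the call of Cyp11a1) to 16 (without BXA14/PgnJ), 0 to 3 for A/J, 1 to 3 for C3H/HeJ, 0 to 0 for DBA/2J, 2 to 5 within AXB/BXA, 10 to 12 within BXD, 0 to 2 within BXH, 0 to 1 for AXB/BXA against BXD and 0 to 0 for the other 2 family contrasts. Cyp2e1, Cyp2b10, Cyp2d22, Cyp4b1 and Cyp4v3 kept the strain-effect call under all 108 settings. No called difference between parents or families changed sign under any setting run, but 4 called intraclass correlations fell below 0. Within AXB/BXA these were Cyp2e1 (-0.71) and Cyp2b10 (-0.07) without airway-high arrays and Cyp11a1 (-0.02) without BXA12/PgnJ and BXA14/PgnJ, and within BXD it was Cyp3a11 (-0.0013) without airway-high arrays. Of 1400 gene values for the strain effect, 1375 kept their side of the threshold and 25 lost it. Of 41 for A/J it was 25 and 16, and of 42 for C3H/HeJ 27 and 15. Among the 108 strain-effect settings, 94 left out only 1 strain or 1 array. With the highest Xist strain mean as the background level 12 members were expressed, and with the median level of all genes 11. Signal near the background level limits the members in between.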

Other observations

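Values under this heading belong to no comparison. AXB24/PgnJ replicate 1 differed from the other 2 arrays of its strain in several P450 genes at once. Cyp4a10 was 4.56, against 9.0 and 9.07, Cyp2b10 was 6.92, against 11.03 and 11.47, Cyp2d22 was 6.51, against 8.30 and 8.49, and Cyp4b1 was 9.34, against 10.82 and 10.86. Whether the array holds RNA of this strain was not tested. Cyp27a1, at 7.61, against 7.59 and 7.67, was alike on all 3. The array's liver score was 0.47, against 0.21 and 0.25, and its thymocyte score was -0.18, against -0.15 and -0.25.

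C57L/J replicate 1 had the lowest Cyp4v3 value of all arrays, at 5.09, against 7.55 in replicate 2, and the lowest Cyp2j6 value, at 3.98, against 6.40. Its adipocyte score was -0.76, against -0.09, and both arrays had high thymocyte scores, at 4.41 and 3.51. BXH2/TyJ replicate 1 held the highest Cyp4f18 value of all arrays, at 6.76, against 3.51 in replicate 2.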
